A study of Mus musculus with 6 samples.

Results

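The Schlafen genes of the mouse encode a family of proteins that share an N-terminal core and are known in lymphocytes for their link to growth control and quiescence. Short members (Slfn1 and Slfn2) hold little beyond the core, the intermediate Slfn3 adds a linker region, and long members (Slfn5, Slfn8 and Slfn9) carry a helicase-like C-terminal part. Many of the genes respond to type I interferon, and T cells that lack functional Slfn2 in elektra mice fail to stay quiescent and are lost. The 6 genes described here were chosen by name from 23951 rows of the deposited expression table, and all 6 were found.

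RNA was sequenced from mouse CD8+ T cells that the labels call deficient in Tcf1 (the product of Tcf7) and Lef1, HMG-box transcription factors that bind TCF/LEF motifs, and from wild-type cells. The 3 libraries labelled as Tcf1/Lef1-deficient, called DKO (double knockout) here, came from mice with floxed alleles of both genes, and the 3 WT libraries from mice with wild-type alleles. Both genotypes carried hCD2-Cre, a Cre transgene under human CD2 control that acts in lymphoid cells, and Rosa26-lsl-GFP, a reporter that marks cells in which Cre has acted. Cells were sorted from the spleen as GFP+ TCRbeta+ CD62Lhi CD44lo-med CD8+ and then kept for 72 h in culture with both IL-7 and IL-15, which sustain T cells and drive their slow homeostatic division. Age, strain, pooling of animals and the deleted exons are not given in the sources used here. Whether the 3 libraries of a genotype are separate animals is not labelled, so a p-value here covers the spread among these libraries, part of which may be technical. Xist, the RNA of the inactive X chromosome, had 56.9, 1.46 and 0.0174 FPKM in DKO libraries 0, 1 and 2, against 55, 69.6 and 1.69 FPKM in WT libraries 0, 1 and 2, so it was high in 1 of 3 DKO and 2 of 3 WT libraries. It varied within both genotypes, and its part in the results was not tested.

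Levels are FPKM (fragments scaled to transcript length and library size), so levels of different genes can be set side by side, but absolute depth is unknown. Relative depth ranged over 1.08 to 1.2 in DKO libraries and 1.0 to 1.21 in WT libraries, with WT library 0 set to 1. It is a rough estimate, since 18.7% to 21.8% of the genes compared in the other 5 libraries gave a value within 0.02 of it. In each library 10473 to 10551 genes reached 1 FPKM. Tcf7 had 288, 270 and 277 FPKM in DKO libraries 0, 1 and 2, against 564, 555 and 532 FPKM in WT libraries 0, 1 and 2, and Lef1 had 48.5, 51.8 and 52.2 FPKM in DKO cells, against 132, 105 and 157 FPKM in WT cells. No DKO value reached a WT value for either of them, yet RNA over their rows remained, and the deposited value covers the whole gene rather than its floxed part. T cell markers summed to 2780 to 3150 FPKM in DKO libraries and 2700 to 3140 FPKM in WT libraries, with 5 of 6 markers in the table. Among them Cd3d was lower in every DKO library than in every WT library (log2 fold change -0.57, limma adjusted p = 0.14). Cd3e (0.26, limma adjusted p = 0.26) and Cd3g (0.31, limma adjusted p = 0.34) overlapped between genotypes. B cell markers summed to 18 to 27 FPKM in DKO and 13.3 to 21.8 FPKM in WT libraries, of which Cd79b made most and Ms4a1 and Pax5 were at 0, and myeloid markers to 3.75 to 5.29 FPKM in DKO and 3.26 to 9.94 FPKM in WT libraries, with 9 of 10 in the table. NK cell markers summed to 14.8 to 19.1 FPKM in DKO and 44.1 to 95.3 FPKM in WT libraries, and 3 of the 5 markers stayed under 1 FPKM in every library. Eomes, which CD8+ T cells express as well, had 4.14, 12 and 11.9 FPKM in DKO libraries, against 65.5, 90.1 and 42.1 FPKM in WT libraries, and Tyrobp, an adaptor of NK and myeloid cells, went the other way, with 10.6, 6.7 and 4.01 FPKM in DKO libraries, against 2.31, 4.72 and 1.88 FPKM in WT libraries (log2 fold change 1.01, limma adjusted p = 0.17). Whether the differences in NK and CD4 T cell markers have a part in the results on Schlafen genes was not tested. Markers of CD4 T cells summed to 0.552 to 1.99 FPKM in DKO and 0.0701 to 0.195 FPKM in WT libraries, and erythroid markers reached at most 0.00322 FPKM in DKO and 0.00328 FPKM in WT libraries. DKO library 2 and WT library 0 stood apart in earlier results of these data, which are not shown here, and no other pair was left out together. With both left out the number of genes called over the whole table was 28 in place of 1144.

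All 6 genes lie in 1 cluster on chromosome 11, within 264 kb (chr11:82951349-83215154, GRCm38). In that order, GENCODE M21 places Slfn5 at chr11:82951349-82964840 on the plus strand, Slfn9 at chr11:82978390-82991830 and Slfn8 at chr11:83002158-83020810 on the minus strand, Slfn2 at chr11:83065112-83070678, Slfn1 at chr11:83116849-83122670 and Slfn3 at chr11:83191330-83215154 on the plus strand. The long members thus sit side by side at one end of the cluster. Upstream sequence is shown for these 3 genes, since they were the members whose groups did not overlap. The 250 bases before each RefSeq start (GRCm38.p6) were searched on both strands for the interferon-stimulated response element (GAAA, any 2 bases, GAAA), the STAT motif TTCNNNGAA and the TCF/LEF motif CTTTGA, and the first 220 of these bases are printed on the strand of the gene, 5′ to 3′, ending 31 bases before the start. Capitals mark every match, and a match read on the opposite strand appears as its reverse complement.
Slfn5, chr11:82951852-82952071, plus strand: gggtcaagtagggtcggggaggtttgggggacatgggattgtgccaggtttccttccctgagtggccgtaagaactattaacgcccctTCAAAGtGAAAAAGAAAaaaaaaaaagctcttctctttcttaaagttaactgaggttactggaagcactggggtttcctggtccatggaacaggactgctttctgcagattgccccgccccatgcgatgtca
Slfn8, chr11:83020841-83021060, minus strand: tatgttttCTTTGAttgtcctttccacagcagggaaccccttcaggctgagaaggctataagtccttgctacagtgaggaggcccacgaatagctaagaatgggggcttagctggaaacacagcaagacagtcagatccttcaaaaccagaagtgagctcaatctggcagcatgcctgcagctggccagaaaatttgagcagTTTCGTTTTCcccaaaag
Slfn9, chr11:82991861-82992080, minus strand: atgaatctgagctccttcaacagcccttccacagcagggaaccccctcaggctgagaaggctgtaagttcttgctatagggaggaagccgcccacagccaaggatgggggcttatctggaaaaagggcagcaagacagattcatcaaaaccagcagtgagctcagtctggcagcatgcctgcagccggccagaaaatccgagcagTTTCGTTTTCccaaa

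In the Slfn5 window the TCF/LEF letters, on the opposite strand, lay 162 to 157 bases before the start and the interferon element 155 to 146 bases before it, with 1 base in between. The Slfn8 window held an interferon element at 48 to 39 bases and a TCF/LEF match at 242 to 237 bases before the start. The Slfn9 window held the interferon element at 45 to 36 bases before the start and no TCF/LEF match. Slfn8 also has a second RefSeq start, from which the same interferon element lies 136 to 127 bases away and whose window holds no TCF/LEF match. None of the 3 motifs was found in the windows of Slfn1, Slfn2 and Slfn3, and the STAT motif in none of the 6 genes. Among 27025 promoter windows of the same length, 3.04% held the interferon element, 7.18% the STAT motif and 14% the TCF/LEF letters, so the last is a frequent match. The Slfn8 and Slfn9 windows were alike, with 204 identical bases in 255 aligned columns (80.0%), while the other pairs of members had 42.9% to 50.4% identity. The RefSeq start of Slfn5 lies 753 bases inside the GENCODE gene, whose first transcript is a short one, and the matches there lie outside annotated exons. These matches describe letters in the window and not binding.

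Slfn5, whose RNA in DKO cells was 8.49-fold that of WT cells, was the member that passed the test, and none of the other 5 genes passed it. Slfn8 was higher and Slfn9 lower in every DKO library than in every WT library, without passing it. The short members Slfn1 and Slfn2, by far the most abundant of the family, overlapped between genotypes, as did Slfn3. The test was limma on log2(FPKM + 1) with Benjamini-Hochberg adjustment over 10723 genes that averaged at least 1 FPKM, and all 6 members passed that filter. It called 1 of 6 members higher in DKO cells, against 4.31% of all tested genes, and 0 of 6 lower, against 6.36%. An unadjusted p under 0.05 was found for 4 members. Such values were common, since Slfn3 (limma unadjusted p = 0.035) ranked 2399 by p-value among the 10723 tested genes. Groups did not overlap for 2 members that were higher in DKO cells, against 17.0% of all tested genes, and for 1 that was lower, against 17.1%. The median log2 fold change of the 6 was 0.24, against 0.00819 for all tested genes. In bulk RNA, fewer cells that express a gene and less RNA per cell cannot be told apart.

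**Figure D1:**
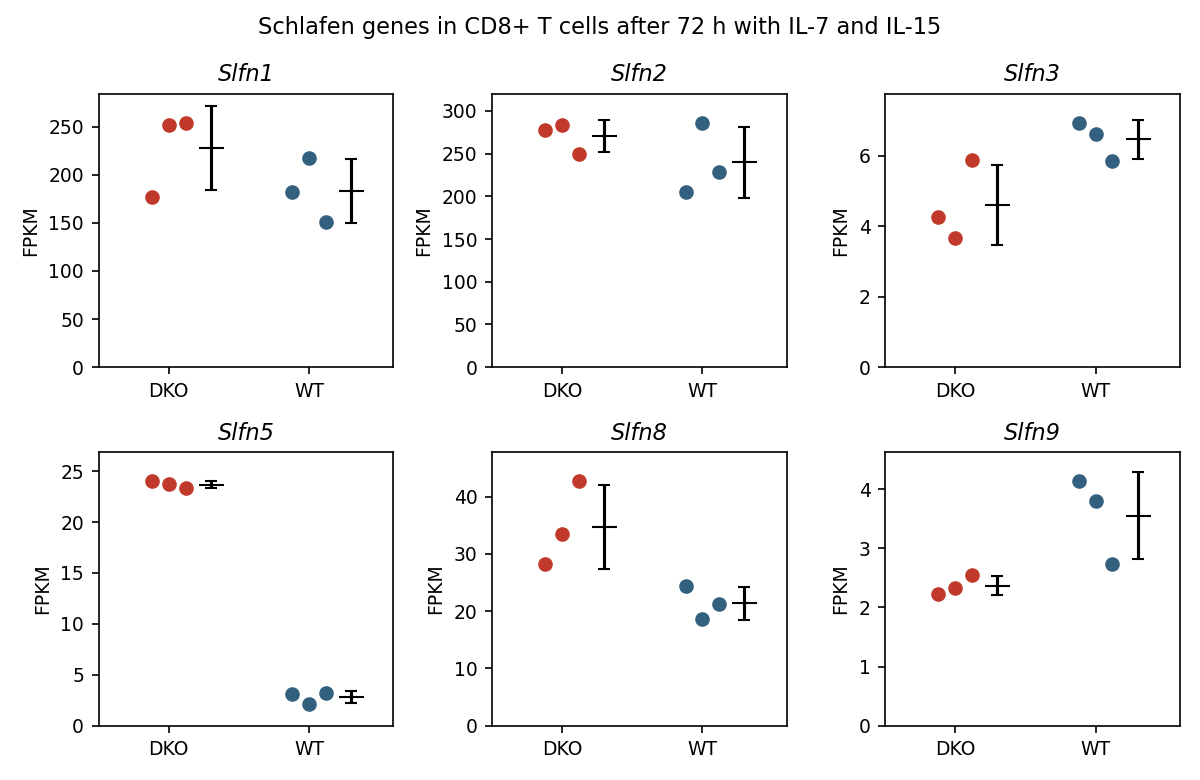
FPKM of the 6 Schlafen genes at 72 h, with DKO libraries in red on the left and WT libraries in blue on the right of each panel; points are libraries 0, 1 and 2 in that order, bars the mean ± SD (n = 3 each), and every axis starts at 0. Slfn5 lies at 23.3 to 24.0 FPKM in DKO and 2.14 to 3.16 FPKM in WT libraries, while Slfn1, Slfn2 and Slfn3 overlap between genotypes.

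Among the short members, Slfn1, whose forced expression slows the growth of thymocytes in mice, had 177, 252 and 254 FPKM in DKO libraries 0, 1 and 2, against 182, 217 and 151 FPKM in WT libraries 0, 1 and 2. DKO library 0 lay within the range of the WT libraries, while DKO libraries 1 and 2 exceeded all of them, and the groups overlapped. Slfn1 averaged 227 ± 43.8 FPKM in DKO and 183 ± 32.9 FPKM in WT cells (SD, n = 3 each), a log2 fold change of 0.30 (SE 0.20, 95% interval -0.19 to 0.80, limma adjusted p = 0.39). Slfn2, the gene mutated in elektra mice and known to protect tRNAs from cleavage in T cells, had 278, 284 and 249 FPKM in DKO libraries, against 205, 286 and 229 FPKM in WT libraries. The highest value of all belonged to WT library 1, so the groups overlapped here as well. Its means were 270 ± 18.4 FPKM in DKO and 240 ± 41.8 FPKM in WT cells, with a log2 fold change of 0.18 (SE 0.15, 95% interval -0.18 to 0.54, limma adjusted p = 0.48). A rise of either gene as large as the upper bound of its interval is thus not excluded. The ratio of Slfn1 to Slfn2 was 0.636, 0.887 and 1.02 in DKO libraries and 0.890, 0.758 and 0.659 in WT libraries, and it did not differ beyond the spread (exact permutation test, two-sided, p = 0.8, where 3 against 3 libraries cannot go below 0.1).

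The intermediate Slfn3, studied in mouse and rat intestinal epithelium and in regulatory T cells, had 4.27, 3.65 and 5.87 FPKM in DKO libraries, against 6.93, 6.61 and 5.85 FPKM in WT libraries. DKO libraries 0 and 1 were below every WT library, but DKO library 2 was level with WT library 2, so the groups overlapped. It averaged 4.60 ± 1.14 FPKM in DKO and 6.46 ± 0.553 FPKM in WT cells, with a log2 fold change of -0.43 (SE 0.16, 95% interval -0.82 to -0.0423, limma adjusted p = 0.16). The interval of this single gene excludes 0, whereas the p adjusted over all genes misses the threshold. In the annotation, 13.1% of the 50-base stretches of the Slfn3 transcript also occur in Slfn4, so reads could be shared between them. Slfn4, the other intermediate member, was at 0.139, 0.299 and 0.515 FPKM in DKO and 0.389, 0.299 and 0.260 FPKM in WT libraries, under the filter.

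Of the long members, Slfn5, an interferon-inducible nuclear Schlafen protein, had 24.0, 23.7 and 23.3 FPKM in DKO libraries, against 3.08, 2.14 and 3.16 FPKM in WT libraries. The DKO libraries lay close together and far above all WT libraries. Slfn5 averaged 23.7 ± 0.355 FPKM in DKO and 2.79 ± 0.567 FPKM in WT cells, and its log2 fold change was 2.71 (SE 0.12, 95% interval 2.42 to 3.01, limma adjusted p = 0.00062). Because 1 is added before the logarithm, this value understates the change of a gene this low in WT cells. By fold change it ranked 65 and by p-value 9 among the 10723 tested genes. Its coefficient of variation was 1.5% in DKO and 20.3% in WT cells. Without DKO library 2 and WT library 0 the log2 fold change was 2.78 (limma adjusted p = 0.038), and over 17 alternative settings it ranged over 2.58 to 3.09 with adjusted p of 0.00023 to 0.038. No 50-base stretch of its transcript occurs in another Schlafen gene.

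The row of Slfn5os, an RNA gene on the opposite strand that overlaps Slfn5 by 9333 bases, was listed at 0.385, 0.364 and 0.119 FPKM in DKO libraries and at 0 in all WT libraries. Both rows were higher in DKO cells, but no source used here says whether counting used strand, so reads from the pair cannot be told apart. The row is far under the filter and was not tested.

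Slfn8, a long member whose transgenic expression reduces T cell proliferation in mice, had 28.2, 33.5 and 42.7 FPKM in DKO libraries, against 24.4, 18.6 and 21.2 FPKM in WT libraries. Every DKO library was above every WT library, with the closest pair formed by DKO library 0 and WT library 0. Its means were 34.8 ± 7.34 FPKM in DKO and 21.4 ± 2.92 FPKM in WT cells, 1.62-fold, with a log2 fold change of 0.66 (SE 0.17, 95% interval 0.24 to 1.09, limma adjusted p = 0.068). In the authors' deposited table, where the test was Cuffdiff's, the same comparison had a log2 fold change of 0.70 and q = 0.00064. Without DKO library 2 and WT library 0 the limma value was 0.60 (adjusted p = 0.12). The call for Slfn8 therefore depended on the test.

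Slfn9, the long member with the lowest level in DKO cells, had 2.22, 2.33 and 2.54 FPKM in DKO libraries, against 4.13, 3.79 and 2.73 FPKM in WT libraries. All DKO libraries were below all WT libraries, WT library 2 only just. It averaged 2.36 ± 0.163 FPKM in DKO and 3.55 ± 0.727 FPKM in WT cells, with a log2 fold change of -0.42 (SE 0.14, 95% interval -0.78 to -0.0699, limma adjusted p = 0.13). The authors' deposited table gave -0.59 and q = 0.019. Slfn8 and Slfn9 are uncertain where reads were split between near copies, since 15.4% and 11.2% of their 50-base stretches, in that order, occur in another Schlafen gene, most of them in the pseudogene Slfn10-ps. That pseudogene had 2.72, 2.60 and 3.28 FPKM in DKO libraries and 2.22, 1.02 and 1.96 FPKM in WT libraries, a log2 fold change of 0.53 (limma adjusted p = 0.17). Slfn14 was at 0.0136 FPKM or less in DKO and 0.0149 FPKM or less in WT libraries, and Slfnl1, a Schlafen-like gene on chromosome 4, was listed at 0 in DKO libraries and at 0.0335 FPKM or less in WT libraries.

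**Figure D2:**
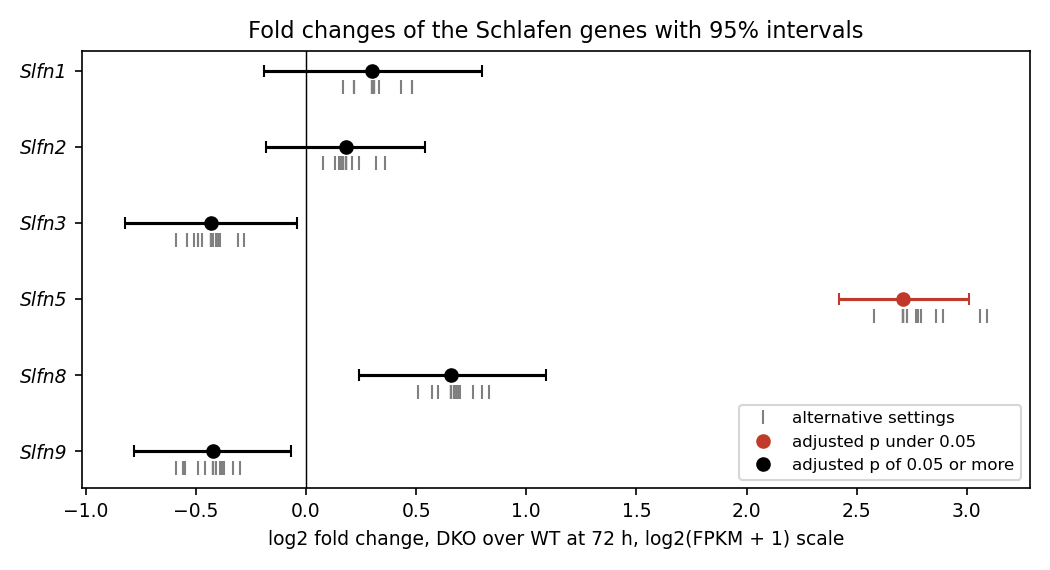
Log2 fold changes (DKO over WT at 72 h, on the log2(FPKM + 1) scale) of the 6 genes from limma with 95% intervals; grey ticks are the values under the alternative settings, and red marks an adjusted p under 0.05. Slfn5 stands at 2.71 with all alternatives between 2.58 and 3.09, and the other 5 genes lie between -0.43 and 0.66.

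The order of levels within the family differed between genotypes in the place of Slfn5. In DKO cells the means ran Slfn2, Slfn1, Slfn8, Slfn5, Slfn3 and Slfn9, and Slfn2 and Slfn1 were the one neighbouring pair whose libraries overlapped. In WT cells they ran Slfn2, Slfn1, Slfn8, Slfn3, Slfn9 and Slfn5, with overlap between Slfn2 and Slfn1 and between Slfn9 and Slfn5. Among all tested genes Slfn5 lay at percentile 62.6 of the mean level in DKO and 11.4 in WT cells, whereas Slfn2 lay at 96.9 in DKO and 96.2 in WT cells. The 6 genes summed to 513, 599 and 577 FPKM in DKO libraries, against 425, 534 and 413 FPKM in WT libraries. Slfn1 and Slfn2 made up 87.1% to 89.4% of this sum in DKO and 90.9% to 94.2% in WT libraries, and Slfn5 3.97% to 4.67% in DKO and 0.40% to 0.764% in WT libraries.

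Ratios between members of 1 library do not depend on its scaling. The ratio of Slfn5 to Slfn8 was 0.852, 0.708 and 0.546 in DKO libraries, against 0.126, 0.115 and 0.149 in WT libraries, and that of Slfn8 to Slfn9 was 12.7, 14.4 and 16.8 in DKO libraries, against 5.92, 4.91 and 7.77 in WT libraries. Neither ratio overlapped between genotypes, and for both the exact two-sided permutation test gave p = 0.1, the smallest that 3 against 3 libraries allow. For Slfn8 to Slfn9 this outcome was fixed, since Slfn8 was higher and Slfn9 lower in every DKO library than in every WT library. For Slfn5 to Slfn8 the outcome was fixed as well, by the ranges of both genes. Slfn5 had 23.3 FPKM or more in DKO libraries and 3.16 FPKM or less in WT libraries. Slfn8 had 42.7 FPKM or less in DKO libraries and 18.6 FPKM or more in WT libraries. No pairing of these values within a genotype would make the ratios overlap. The tests of both ratios therefore add nothing to the values of the genes. On the log2 scale the DKO ratios were higher by 2.42 for Slfn5 to Slfn8 and by 1.25 for Slfn8 to Slfn9.

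Before culture, every member was higher in DKO cells in the authors' deposited table. Per-library values at 0 h were not used here, so these are the authors' Cuffdiff fold changes and q-values. At 0 h all 6 members were higher in DKO than in WT cells at q under 0.05, against 14.7% of tested genes called higher and 16.9% called lower, with a median log2 fold change of 0.57, against -0.00705 for all tested genes. In the authors' deposited table Slfn5 was 3.0-fold higher in DKO cells (log2 1.59, q = 0.00031), and Slfn1, Slfn2, Slfn3, Slfn8 and Slfn9 were 1.43-fold, 1.47-fold, 1.35-fold, 1.53-fold and 1.5-fold higher. With a 2-fold minimum added, 1 of the 6, Slfn5, was left. The share of all tested genes with this minimum is not given here, so that count has no background beside it. At 72 h the authors' deposited table called Slfn5 and Slfn8 higher in DKO cells, against 6.46% of tested genes, and Slfn9 lower, against 9.87%, and did not call the other 3. Slfn3 and Slfn9 thus had positive values at 0 h (log2 0.43 and 0.59) and negative ones at 72 h (log2 -0.49 and -0.59) in the authors' deposited table, and whether the effect of genotype differed between the times was not tested.

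Over the culture of WT cells, 4 members rose and the other two fell. In the authors' deposited table, WT cells at 72 h had 1.54-fold Slfn1, 1.53-fold Slfn2, 1.92-fold Slfn3 and 2.02-fold Slfn9 of the level at 0 h, each at q = 0.0002, against 25.8% of tested genes called higher. Slfn5 was 8.75-fold lower (log2 -3.13) and Slfn8 1.76-fold lower (log2 -0.82) in WT cells at 72 h than at 0 h, also at q = 0.0002, against 22.1% of tested genes called lower. The long members Slfn5 and Slfn8 thus moved against Slfn9 and the shorter members in WT cells. In DKO cells, the authors' deposited table had Slfn5 3.13-fold lower (log2 -1.65) and Slfn8 1.67-fold lower (log2 -0.74) at 72 h than at 0 h, both at q = 0.00023, against 20.4% of tested genes called lower. Slfn1 was 1.32-fold higher (q = 0.0034), against 24.8% called higher, while Slfn2 (log2 0.21, q = 0.14), Slfn3 (log2 -6.14e-05, q = 1.0) and Slfn9 (log2 -0.18, q = 0.40) were not called in DKO cells. The pseudogene Slfn10-ps was 2.48-fold lower at 72 h in DKO cells and 3.51-fold lower in WT cells in the authors' deposited table. The 4 comparisons share their groups in pairs and are not independent of each other. Many q-values are tied because the smallest p that the authors' table holds for these genes is 5e-05.

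**Figure D3:**
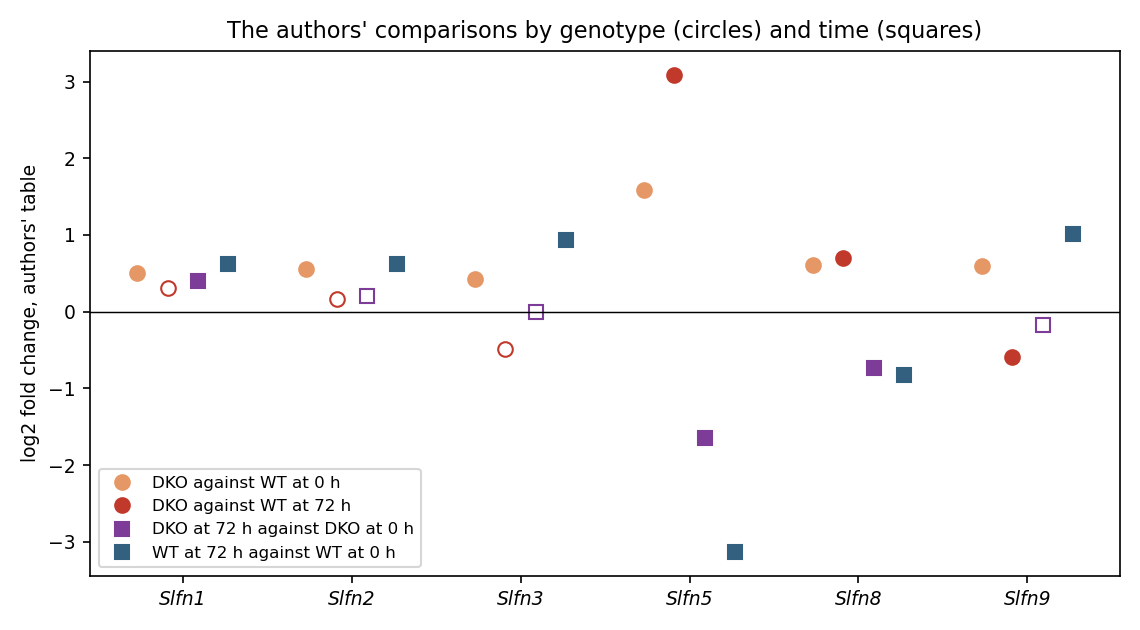
Log2 fold changes of the 6 genes in the authors' deposited table, for DKO against WT at 0 h and 72 h (circles) and for 72 h against 0 h in each genotype (squares); filled symbols have q under 0.05 and open ones do not. Slfn5 lies above 0 in both genotype comparisons (1.59 and 3.09) and below 0 in both time comparisons (-1.65 in DKO and -3.13 in WT cells).

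Since many Schlafen genes respond to interferon, the other genes of that response were read from the same fit. Of 16 genes for interferon receptors, signalling and factors, 2 were higher in DKO cells, against 4.31% of all tested genes, and 0 lower, against 6.36%, with a median log2 fold change of 0.17, against 0.00819 for all tested genes. Ifngr1, a chain of the interferon-gamma receptor, had 419, 365 and 345 FPKM in DKO libraries, against 202, 198 and 202 FPKM in WT libraries (log2 fold change 0.90, limma adjusted p = 0.0067), and Ifnar1, a chain of the type I interferon receptor, 46.9, 48.3 and 53.2 FPKM in DKO, against 35.1, 27.9 and 32.9 FPKM in WT libraries (0.62, adjusted p = 0.021). Both receptor chains were higher in every DKO library. The partner chain Ifnar2 averaged 78.4 ± 4.61 FPKM in DKO and 65.3 ± 3.33 FPKM in WT cells (SD, n = 3 each) and was not called (0.26, limma adjusted p = 0.11). Neither receptor chain was called without DKO library 2 and WT library 0 (limma adjusted p = 0.076 for Ifngr1 and 0.092 for Ifnar1), and Ifnar1 also lost its call without DKO library 0, 1 or 2 or WT library 2 (0.066, 0.083, 0.069 and 0.062, in that order).

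None of the listed interferon-stimulated genes passed the test. Of 34 listed genes 30 passed the filter, and limma called 0 of them, against 4.31% of all tested genes called higher and 6.36% lower. An unadjusted p under 0.05 was found for 3 of the 30, and for at least 2399 of the 10723 tested genes. The log2 fold changes of the 30 genes ran from -0.40 to 0.72. Their median was -0.056, against 0.00819 for all tested genes. Samhd1, a dNTP hydrolase that restricts viruses, averaged 502 ± 135 FPKM in DKO and 297 ± 33.5 FPKM in WT cells (0.72, limma adjusted p = 0.11). The ubiquitin ligase Trim25 averaged 22.8 ± 1.29 FPKM in DKO and 26.8 ± 2.05 FPKM in WT cells (-0.22, limma adjusted p = 0.16). Oasl1, an OAS-like protein, averaged 3.16 ± 0.544 FPKM in DKO and 2.06 ± 0.515 FPKM in WT cells (0.45, limma adjusted p = 0.16).

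Genes tied to T cell quiescence, the setting in which Slfn2 is best known, were called in both directions. Of 22 listed genes 20 passed the filter, 3 were higher in DKO cells, against 4.31% of all tested genes, and 2 lower, against 6.36%, and the median log2 fold change was 0.23, against 0.00819 for all tested genes. The count of lower genes is thus near the background. The CDK inhibitor Cdkn1b averaged 122 ± 5.81 FPKM in DKO and 84.9 ± 2.33 FPKM in WT cells (SD, n = 3 each; 0.52, limma adjusted p = 0.012), and Il7r, the receptor chain for IL-7, 77.1 ± 10.1 FPKM in DKO and 45 ± 3.99 FPKM in WT cells (0.76, adjusted p = 0.017). The third gene called higher was Klf6 (0.63, limma adjusted p = 0.033). The INK4 inhibitors Cdkn2c, with 5.41 ± 0.338 FPKM in DKO and 18.7 ± 4.19 FPKM in WT cells, and Cdkn2d fell (-1.60 and -0.62, limma adjusted p = 0.0042 and 0.037). Klf6 and Cdkn2d were added to the names because they complete the calls. Without DKO library 2 and WT library 0 none of the 5 was called. Leaving out any 1 library ended the calls of Klf6 (limma adjusted p of 0.063 to 0.10) and Cdkn2d (0.068 to 0.13). Cdkn1b lost its call without DKO library 0 or 1 (0.063 and 0.073) and Il7r without DKO library 1 or WT library 1 or 2 (0.076, 0.051 and 0.062).

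Cell division genes moved together. All 20 passed the filter and all 20 were lower in DKO cells, against 6.36% of all tested genes, with a median log2 fold change of -1.94 and values of -2.50 to -0.59. The spindle checkpoint kinase Bub1 had 1.21, 1.29 and 1.62 FPKM in DKO libraries, against 7.48, 8.27 and 6.52 FPKM in WT libraries (-1.83, limma adjusted p = 0.0022), Bub1b of the same checkpoint fell to 5.54 ± 0.282 FPKM in DKO, against 26.2 ± 4.51 FPKM in WT cells (-2.04, adjusted p = 0.0018), and Rrm2, a subunit of ribonucleotide reductase, to 16.1 ± 2.09 FPKM in DKO, against 78.9 ± 15.4 FPKM in WT cells (-2.21, adjusted p = 0.0027). Lower division genes thus accompanied higher Slfn5 in the DKO libraries, and their part in the Slfn5 result was not tested. Without DKO library 0, and likewise without DKO library 2, 13 of the 20 were called, and with DKO library 2 and WT library 0 both left out 0 were. Of 9 genes of tRNA cleavage and its repair, the process tied to Slfn2, 6 passed the filter. Limma called 0 of the 6, against 4.31% of all tested genes called higher and 6.36% lower, so the count is near these shares. Among them 0 had an unadjusted p under 0.05, and the median log2 fold change was -0.0474. The tRNA ligase subunit Rtcb had 99.7, 107 and 93.3 FPKM in DKO libraries, against 106, 144 and 123 FPKM in WT libraries (-0.30, limma adjusted p = 0.21), and the tRNA methyltransferase Nsun2 (-0.13, adjusted p = 0.37) and methyltransferase subunit Trmt6 (-0.12, adjusted p = 0.38) were not called either.

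None of the genes on either side of the Schlafen cluster passed the test. Of 10 neighbours 6 passed the filter, and their median log2 fold change was 0.0828. Limma called 0 of the 6, against 4.31% of all tested genes called higher and 6.36% lower. So few genes leave 0 calls near these shares, which says little about the neighbours. An unadjusted p under 0.05, which at least 2399 of the 10723 tested genes had, was found for 1 neighbour. That gene was the DNA ligase Lig3, with 12.2, 12 and 12.1 FPKM in DKO libraries, against 9.85, 7.36 and 9.38 FPKM in WT libraries (0.42, limma adjusted p = 0.071). Every DKO library of Lig3 was above every WT library. The clathrin adaptor gene Ap2b1 (0.11, limma adjusted p = 0.49) overlapped between genotypes. Fndc8, Unc45b, Gas2l2 and Rasl10b were under the filter.

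**Figure D4:**
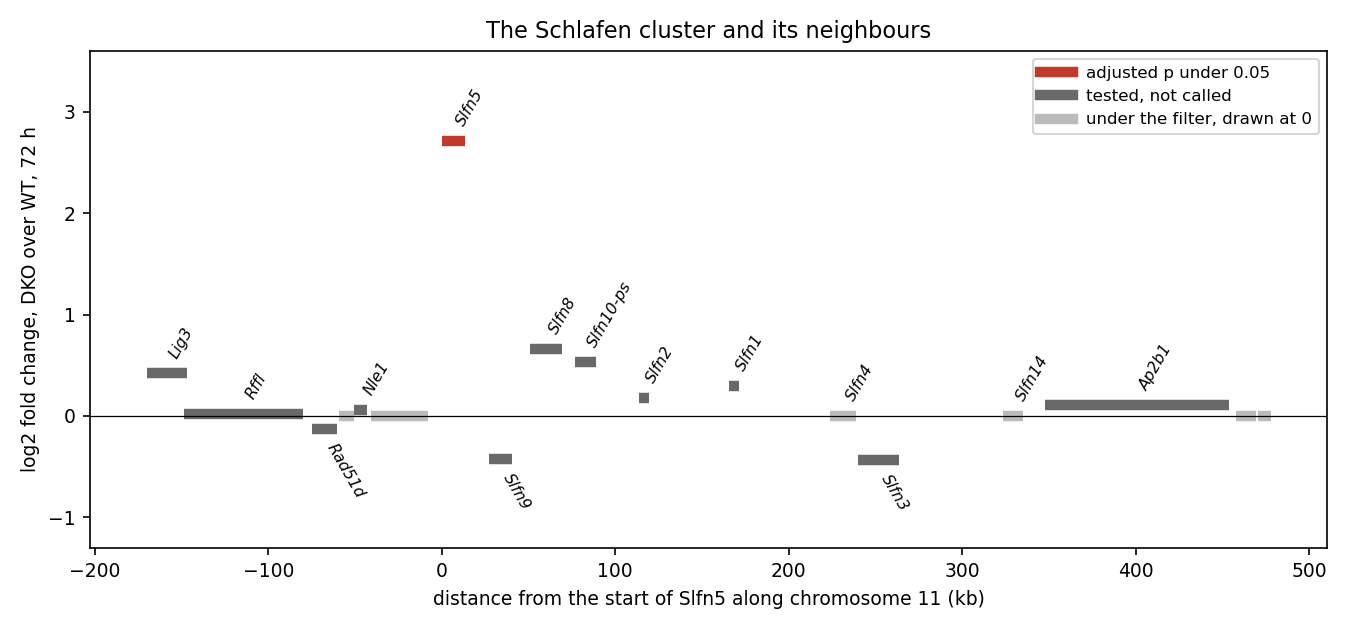
Log2 fold change (DKO over WT at 72 h, limma) of the genes shown against their distance in kb from the start of Slfn5 along chromosome 11; the bars span the annotated genes, red marks an adjusted p under 0.05, dark grey a tested gene that was not called, and light grey a gene under the filter, drawn at 0. Slfn5 stands at 2.71 while Slfn8 (0.66), Slfn10-ps (0.53) and Slfn9 (-0.42) lie near it, and the bars without names are Fndc8, Unc45b, Rasl10b and Gas2l2.

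Across the 6 libraries, the levels of Slfn5 and Slfn8 on the log2(FPKM + 1) scale had a Pearson r of 0.87, those of Slfn3 and Slfn9 of 0.83, and those of Slfn5 and Slfn9 of -0.84. The short members Slfn1 and Slfn2 had an r of 0.49. These values describe 6 libraries that share genotype within each group of 3, so a difference between genotypes sets much of each r. The genes most like Slfn5 in pattern were Arid3a (r = 0.9979), which encodes an ARID DNA-binding protein, Nucb2 (r = 0.9976), which encodes a calcium-binding protein, and Slc2a3 (r = 0.9969), a glucose transporter gene. Nucb2 averaged 15.1 ± 0.174 FPKM in DKO and 3.81 ± 0.796 FPKM in WT cells (SD, n = 3 each), with a log2 fold change of 1.76 (limma adjusted p = 0.0028). Those most like Slfn8 were Degs2 (r = 0.9986), Art2b (r = 0.9967), which encodes an ADP-ribosyltransferase of the T cell surface, and the diacylglycerol kinase gene Dgkh (r = 0.9953). Art2b averaged 97.0 ± 24.5 FPKM in DKO and 52.1 ± 7.69 FPKM in WT cells (0.86, limma adjusted p = 0.055).

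For Slfn9 the likest genes were Apaf1 (r = 0.9923), the scaffold of the apoptosome, Cyfip2 (r = 0.9908) and Bora (r = 0.9899). Slfn3 was most like Ankrd28 (r = 0.9764), the anaphase-promoting complex gene Cdc23 (r = 0.9716) and A630001G21Rik (r = 0.9678). Slfn1 was most like Zfp691 (r = 0.9908), Gm14446 (r = 0.9887) and Gm20594 (r = 0.9818), and Slfn2 most like Tmem50a (r = 0.9897), the Hedgehog pathway gene Smo (r = 0.9832) and the lysosomal protease gene Ctsd (r = 0.9823). None of these 12 genes was called by limma, whose lowest adjusted p among them was 0.064 for A630001G21Rik. For each member the highest r was picked from all tested genes over 6 libraries, so these are names of like patterns only.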

How the data were processed

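RNA from 3 DKO and 3 WT libraries at 72 h was sequenced on a HiSeq-2000, per the labels, and groups were taken from the sample titles. Tools named in the submitters' processing notes are TopHat2 2.1.0, Cuffdiff 2.2.1 and FastQC, and the builds are mm9 and mm10, whose roles they leave unstated. No source used here gives the annotation. The authors deposited FPKM for each library from a Cuffdiff run of the 72 h groups, and p-values, q-values and log2 fold changes of 4 comparisons between groups, per the file headers. Columns of 6 libraries at 0 h (18 columns) belong to no sample of the labels and were not used, nor were 12 columns of 72 h libraries scaled in other runs. Libraries carry the column numbers 0 to 2, so each was matched to its group only.

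Values were analysed as log2(FPKM + 1). The 10723 genes averaging 1 FPKM or more entered a two-sided limma 3.58.1 test (R 4.3.3) with a mean-variance trend and group alone in the model, and p-values were adjusted by Benjamini-Hochberg over all of them at 0.05. FPKM are not counts, so no count model was used. The test was also run on simulated data with known changes. The outcome of that run is not given here, and no result rests on it. The authors' q-values were read at 0.05, over rows with a p below 1. The members and lists were chosen with earlier results of these data known. Named are all members, other Schlafen genes, the targeted genes, the 3 smallest p of each of the 7 lists, and the 3 genes most correlated with each member. Not every list has 3 tested genes, marker lists are given as sums, and 1 listed gene is not reported here. Shared 50-base stretches, positions (GENCODE M21, GRCm38) and promoter motifs (RefSeq table, GRCm38.p6, in which all 6 members matched by symbol) were computed in Python 3.11.15 with Biopython 1.88, and figures drawn with matplotlib 3.10.9. Relative depth came from the smallest steps between low FPKM values. Alternatives were pseudocounts of 0.1 and 0.5, no filter and a mean of 5 FPKM, 3 other scalings, no trend, a replicate block, leaving out libraries, and the authors' test.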

Additional observations from a re-analysis of the deposited data

How the results depend on the processing

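Slfn5 was called under all 17 alternatives tried for it (log2 fold change 2.58 to 3.09), and no Schlafen gene changed direction under any. With the replicate block Slfn5 had an adjusted p of 0.016 (limma) and remained the 1 Schlafen gene called, while the genes called over the table numbered 356 in place of 1144, those of interferon response 0 in place of 2 and those of quiescence 1 in place of 5. Deviations of same-numbered libraries from their group means had r of -0.168, 0.0363 and -0.0143. Such deviations cancel out within a group of 3, so these r cannot show whether same-numbered libraries shared a batch, which was not tested. The authors' test called 1886 genes and 3 Schlafen genes, adding Slfn8 (0.70) and Slfn9 (-0.59). Leaving out 1 library each gave 388 to 765 genes over the table, 1 to 2 of interferon response, 1 to 3 of quiescence and 13 to 20 of cell division. Without DKO library 2 and WT library 0 together, 28 genes were called over the table, and 0 of interferon response, quiescence and cell division, from fewer libraries; neighbours stayed at 0 by limma under every setting tried for them. Without small RNA rows 748 genes were called and the median of all genes rose by 0.16, relative to which Slfn5 was at 2.69, Slfn8 at 0.67, Slfn1 at 0.31, Slfn2 at 0.19, Slfn3 at -0.45 and Slfn9 at -0.46. With a 2-fold minimum the authors' calls of Schlafen genes fell to 1 of 6 for genotype at 0 h, 1 of 3 for time in DKO cells and 2 of 6 for time in WT cells. The shares of all tested genes with that minimum are not given here, so these counts cannot be set against a background. Slfn9 has no value at a mean of 5 FPKM. The cause of these moves was not tested. Leaving libraries out also makes their number smaller, and the part of this in the moves was not tested either. Absolute depth is unknown, which limits statements on the low members Slfn3 and Slfn9 and on Slfn5 in WT cells, where it averaged 2.79 FPKM.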
